A study of Mus musculus with 32 samples.

Results

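Genes known as drivers or markers of human Wilms tumor, the embryonal kidney cancer of childhood, were followed here in embryonic mouse kidneys that carried Wilms tumor mutations of the chromatin reader ENL, which is encoded by Mllt1. The 10 genes were Igf2, H19, Wt1, Mycn, Lin28b, Drosha, Dgcr8, Amer1, Trim28 and Rest. They were taken by name, because each is altered in human Wilms tumor. That rule uses no value of these data, although it was set with earlier results of them known. All 10 were found by their Ensembl identifiers in each of the 4 count tables, which together list 55806 identifiers. In GRCm38, Igf2 and H19 lie at chr7:142650766-142666816 and chr7:142575529-142578143, Wt1 at chr2:105126529-105173616, Mycn at chr12:12936093-12941914, Lin28b at chr10:45376620-45486395, Drosha at chr15:12824815-12935291, Dgcr8 at chr16:18253948-18289246, Amer1 at chrX:95420318-95444872, Trim28 at chr7:12999114-13031035 and Rest at chr5:77265491-77286432.

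Polyadenylated RNA was sequenced in 32 libraries from C57BL/6J mouse embryos. ENL reads acetylated histones through its YEATS domain, and T1 and T3 are separate tumor mutations of that domain, placed in 1 of the 2 Enl alleles so that Cre recombinase switches transcription from the wild-type to the mutant sequence. The Cre was Six2-TGC, a transgene active in nephron progenitors, which also carries aberrant Six3 expression, or Foxd1-GC, a knock-in active in stromal progenitors that inactivates 1 Foxd1 allele. All embryos of a set carried that Cre, controls included. Whole kidneys were taken at embryonic day E18.5 and came from Six2-TGC tg/+ embryos with Enl +/+ (WT, n = 2), Enl T1/+ (n = 2) or Enl T3/+ (n = 2), and from Foxd1 GC/+ embryos with Enl +/+ (n = 3) or Enl T1/+ (n = 3). Cells that had expressed the Cre were marked by the red reporter tdTomato, an allele that controls carried too, and sorted as tdT+ from Six2-TGC kidneys of both stages, E14.5 and E18.5 (3 WT and 3 T1 each), and from Foxd1-GC kidneys of E18.5 (4 WT and 4 T1). By the methods of the study, sorted WT and T1 embryos came from separate crosses, so they were not littermates. The reporter parent was homozygous for the conditional T1 allele in one cross and lacked it in the other. In sorted cells, genotype thus cannot be told apart from cross or litter. The labels do not say that libraries of a group came from separate litters, so each p-value measures only the spread between these libraries.

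Insulin-like growth factor 2 and the non-coding RNA H19 lie side by side in one imprinted domain, in which Igf2 is read from the paternal chromosome and H19 from the maternal one, and gain of Igf2 expression is the most common change of this domain in Wilms tumor. WT1 is a zinc finger transcription factor of nephron progenitors and of podocytes, the filtering cells of the glomerulus. Drosha and Dgcr8 form the nuclear complex that cuts precursors of microRNAs out of their transcripts, and Lin28b keeps one microRNA family, let-7, from being matured, while let-7 in turn represses Lin28b. Mycn drives growth of progenitors, Amer1 restrains WNT signalling, and Trim28 and Rest are repressors that recruit chromatin-silencing enzymes.

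The let-7 sequences are printed first, since Lin28b and the microRNA-cutting complex meet on them. In the RefSeq table (build GRCm38.p6), 10 distinct mature let-7 family members shared 1 seed, bases 2 to 8, which stands in capitals. Those 10 differ only outside these letters, as the following show, and let-7j, listed in the same table, has another seed (GAGGUAU).
let-7a-5p: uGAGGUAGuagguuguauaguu
let-7b-5p: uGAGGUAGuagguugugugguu
let-7g-5p: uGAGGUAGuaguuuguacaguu
miR-98-5p: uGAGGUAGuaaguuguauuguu
H19 is itself the host of miR-675, whose 2 mature strands share no seed with let-7.
miR-675-5p: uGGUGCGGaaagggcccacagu
miR-675-3p: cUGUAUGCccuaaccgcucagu
Small RNAs were not measured here, and the Mir675 identifier stood at 0 in all libraries.

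The letters complementary to the let-7 seed, CTACCTC, were searched on the transcript strand of the longest annotated 3′ untranslated region of each gene (GENCODE vM21, GRCm38). Of the 9 protein-coding genes among the 10, Lin28b held 4 matches in 4445 bases and the other 8 held 0. Over 21022 genes, 9.02% held at least 1 match and 0.152% held 3 or more. These shares were not matched for length, and some of the regions with 0 matches were short (Drosha 169, Trim28 173 and Mycn 913 bases). The Lin28b matches are shown with 20 bases before and 1 after, the match in capitals, on the minus strand of chromosome 10.
Lin28b match 1, chr10:45381022-45381049: ccttcacccgggcgggaagtCTACCTCa
Lin28b match 2, chr10:45378648-45378675: gtacatatacttgttagtaaCTACCTCt
Lin28b match 3, chr10:45378476-45378503: attctgtttacagcacatggCTACCTCc
Lin28b match 4, chr10:45377060-45377087: cttggaaatgatggcaccgaCTACCTCt
A match is a run of letters and not a measured target site. Hmga2 and Igf2bp1, known let-7 targets, held 4 matches each.

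Levels are given as CPM, counts brought to one common library total after TMM scaling, a correction for unequal RNA composition that was made within each table. Total counts ranged from 2557440 to 3508380 in sorted Foxd1 cells and from 67137200 to 157266000 in all other libraries. Between tables the library kit and read length differed, so levels set across tables are descriptions only. Mllt1, the targeted gene, lay between 76.5 and 82.3 CPM in the 4 mutant whole Six2 kidneys against 89.3 and 105 CPM in WT, and since mutant and wild-type transcripts are counted together, it did not check the labels. In bulk samples, fewer cells of a type and less RNA per cell cannot be told apart.

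A gene was called changed by genotype when edgeR's quasi-likelihood test gave a p under 0.05 after Benjamini-Hochberg adjustment over all genes tested (adjusted p) and the fold change was over 1.5. By that rule 1 of the 10 genes was called in each of 5 comparisons: Igf2 in whole Six2-ENL T1 and T3 kidneys and in sorted Six2 cells at E18.5, Lin28b in sorted Six2 cells at E14.5, and Mycn in sorted Foxd1 cells, where 9 of the 10 could be tested. None was called in whole Foxd1-ENL T1 kidneys by edgeR's quasi-likelihood test, though 5 had an adjusted p under 0.05 with smaller folds (33.4% of all genes did) and 5 had an unadjusted p under 0.05. Beside these counts, the share of all tested genes called was 7.77% for T1 and 9.62% for T3 in whole Six2 kidneys, 6.4% in E14.5 and 11.7% in E18.5 sorted Six2 cells, 5.81% in sorted Foxd1 cells and 10.2% in whole Foxd1 kidneys. With 10 genes, 1 call is near each of those shares, so the number of calls is no result about the group, and what follows concerns the single genes.

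**Figure D1:**
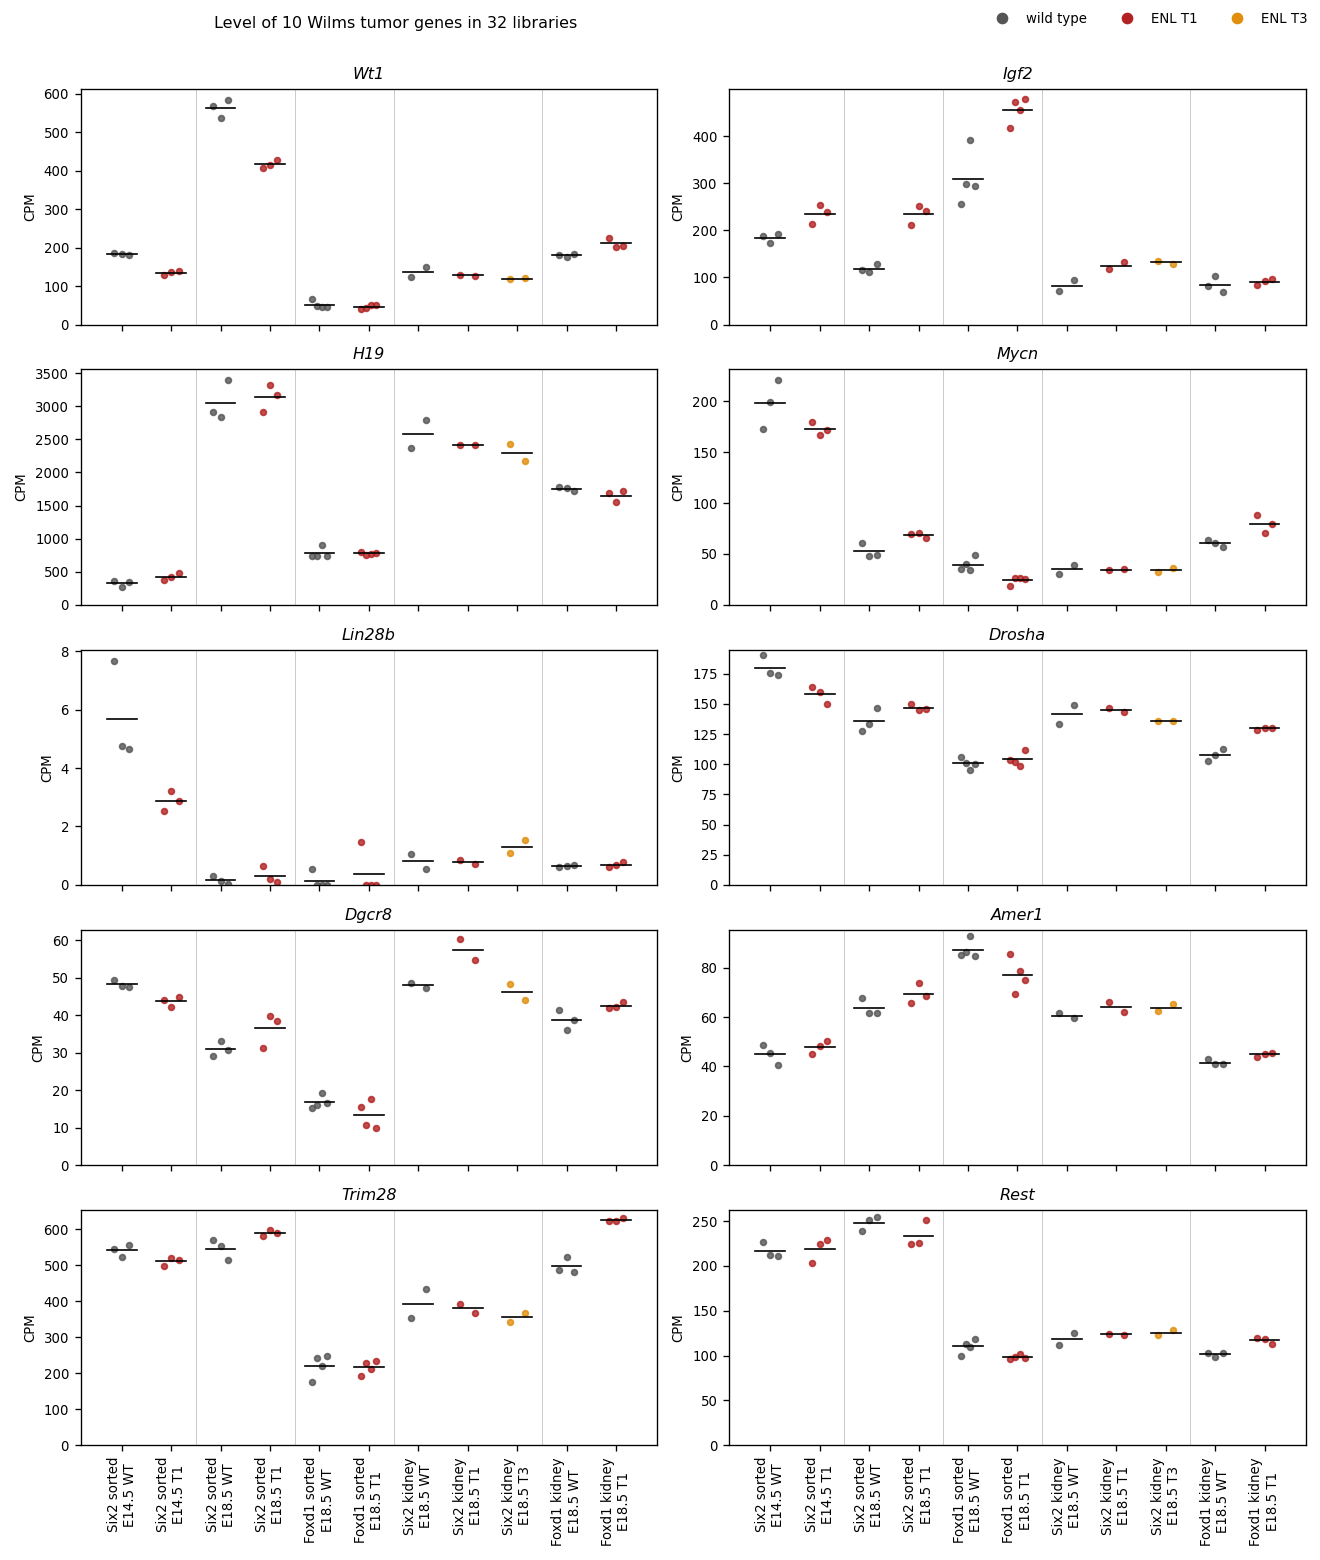
Level of each of the 10 genes in CPM (vertical axes, linear from 0) in the 32 libraries, by group; points are libraries and bars are group means. Igf2 in sorted Six2 cells at E18.5 lay between 111 and 129 CPM in WT and between 210 and 251 CPM in T1, Mycn and Lin28b were highest in sorted Six2 cells at E14.5, and Wt1 was highest in sorted Six2 cells at E18.5.

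Igf2 encodes a fetal growth factor that signals through Igf1r and Insr. In sorted Six2 cells at E18.5 the WT libraries held 117, 111 and 129 CPM and the T1 libraries 210, 251 and 241 CPM. Every T1 library was above every WT library, and the log2 fold change was 0.98 (SE 0.08, adjusted p = 1.35e-06, edgeR's quasi-likelihood test). At E14.5 the same lineage held 188, 173 and 193 CPM in WT and 214, 253 and 239 CPM in T1. The groups again did not overlap, but the log2 fold change was 0.37 (SE 0.07, adjusted p = 0.00931, edgeR) and stayed under the fold threshold.

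The difference between the Igf2 effects at the 2 stages was itself tested. The T1 effect at E18.5 exceeded that at E14.5 by 0.63 on the log2 scale (SE 0.12, adjusted p = 0.00431, edgeR interaction term), 1 of 3 genes of the 10 that passed this test, against 8.16% of all genes. From E14.5 to E18.5, Igf2 in WT cells had a log2 fold change of -0.64 (SE 0.08, adjusted p = 6.68e-06, edgeR). In T1 cells the same stage change was -0.01 (SE 0.08, adjusted p = 0.94, edgeR). WT cells thus held less Igf2 RNA at the later stage, while the T1 groups of the 2 stages overlapped.

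Whole Six2 kidneys showed the same direction. WT libraries held 70.7 and 93.4 CPM, T1 libraries 118 and 132 CPM, and T3 libraries 134 and 129 CPM. Both mutant groups were above both WT libraries. The log2 fold change was 0.61 for T1 (SE 0.12, adjusted p = 0.0152, edgeR) and 0.68 for T3 (SE 0.12, adjusted p = 0.00809, edgeR), and both comparisons share the same WT libraries. T3 minus T1 was 0.07 on the log2 scale (SE 0.12, adjusted p = 0.922, edgeR), and none of the 10 genes was called between the 2 alleles, against 0.00418% of all genes, with 1 of the 10 at an unadjusted p under 0.05. The 2 mutant groups also differed in Xist, a marker of sex, and the WT libraries were mixed (values beside Amer1). The part of sex was not tested. For T1 the Igf2 fold of 1.53 lay just over the threshold of 1.5. Without WT replicate 1 the log2 fold change fell under it, to 0.43 for T1 and 0.50 for T3, and without T1 replicate 2 or T3 replicate 1 the adjusted p rose to 0.124 and 0.0534 (edgeR).

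In sorted Foxd1 cells, stroma and its descendants, WT libraries held 255, 299, 392 and 293 CPM and T1 libraries 417, 473, 455 and 479 CPM. All 4 T1 libraries were above all WT libraries, with a log2 fold change of 0.56 (SE 0.10, adjusted p = 0.000806, edgeR), a fold of 1.48 and so just outside the threshold. Without WT replicate 3, the highest of its group, the log2 fold change was 0.70, and without T1 replicate 1 it was 0.60, and both passed. The Foxd1 effect minus the Six2 effect at E18.5 was -0.44 (SE 0.15, adjusted p = 0.0456, edgeR interaction term), 1 of 3 of 9 tested genes that passed, against 15.9% of all genes; this call was lost on leaving out any of 8 single libraries. In whole Foxd1 kidneys the groups overlapped, at 81.3, 102 and 70.0 CPM in WT and 84.2, 91.5 and 97.0 CPM in T1 (log2 fold change 0.11, SE 0.10, adjusted p = 0.466, edgeR).

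How Igf2 was counted limits these values. Of its 5723 bases of exon on the minus strand, 64.55% lie under exons of other annotated genes, 62.83% under the same-strand gene model Gm49394. Gm49394 was listed at 0 in every library, and how the counting treated reads that fit more than 1 gene is not given in the sources used here. Of the exon bases that Igf2 shares with no gene, 1126 are in 1 stretch, chr7:142658364-142659489. The CPM of Igf2 may thus be a partial level. The antisense gene Igf2os, listed under its own identifier, held 7.52, 6.68 and 7.85 CPM in WT and 15.5, 18.1 and 16.2 CPM in T1 sorted Six2 cells at E18.5, also without overlap. Its mutant libraries were likewise all higher at E14.5 and in whole Six2 kidneys. Its groups overlapped in whole Foxd1 kidneys and in sorted Foxd1 cells (means of 2.39 CPM in WT and 4.40 CPM in T1). Reads of the pair cannot be told apart where they overlap, since counting ignored strand.

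Sums over markers of cell types, within the nephron lineage and outside it, also differed between these groups. Summed levels of 8 stromal markers were 479 to 641 CPM in WT and 1015 to 2116 CPM in T1 sorted Six2 cells at E14.5, and 689 to 1048 CPM in WT and 1080.1 to 1233 CPM in T1 at E18.5, and none of the 8 was at 0 throughout a group. Foxd1, 1 of the 8, went the other way, with 135 to 160 CPM in WT and 59.5 to 94.2 CPM in T1 at E14.5 and with 32.9 to 39.8 CPM in WT and 9.28 to 10.5 CPM in T1 at E18.5. At E18.5, 6 red cell markers summed to 104 to 210 CPM in WT and 1550.45 to 2273 CPM in T1, and 7 macrophage markers to 36.5 to 39.4 CPM in WT and 90.7 to 105 CPM in T1. In the same cells 7 proximal tubule markers summed to 1391 to 1877 CPM in WT and 452 to 493 CPM in T1. For 6 loop and distal tubule markers the sums were 377 to 498 CPM in WT and 245 to 337 CPM in T1. Early nephron markers (8 genes) summed to 1248 to 1356 CPM in WT and 1886 to 2058 CPM in T1. Dissociation stress genes (8 genes) summed to 3403 to 4199 CPM in WT and 2603 to 2973 CPM in T1. Proximal tubule markers stood lower in mutant whole Six2 kidneys too (2441 to 2735 CPM in WT, 387 to 490 CPM in T1 and T3). Macrophage markers stood higher in the same mutant kidneys (125 to 127 CPM in WT, 176 to 206 CPM in T1 and T3). Sorted Foxd1 cells held 95.1 to 230 CPM of them in WT and 239 to 328 CPM in T1, beside 201 to 258 CPM in WT and 327 to 362 CPM in T1 for 8 markers of early nephrons and 6681 to 7168 CPM in WT and 4420 to 5625 CPM in T1 for 8 genes of dissociation stress. Proximal tubule markers in sorted Foxd1 cells summed to 115 to 289 CPM in WT and 57.2 to 95.7 CPM in T1. At E14.5 sorted Six2 cells held 98.1 to 126 CPM of podocyte markers in WT and 51.5 to 56.9 CPM in T1. Some other sums differed too and are not listed here. The groups did not overlap in any of the sums given. The part of cell composition in the differences of Igf2 or, in sorted Foxd1 cells, of Mycn was not tested.

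Per kilobase of unshared exon, H19 stood highest of the 10 genes in all 11 groups, although the Igf2 level in this ranking may be partial. In sorted WT Six2 cells at E18.5, H19 held 1365 CPM per kilobase against 131 for Trim28, the next. In those cells H19 did not follow Igf2. WT libraries held 2914, 2838 and 3402 CPM and T1 libraries 2916, 3319 and 3176 CPM. The groups overlapped, and the log2 fold change was 0.05 (SE 0.08, adjusted p = 0.746, edgeR). In the 5 other genotype comparisons against WT the H19 log2 fold change lay between -0.17 and 0.39, and none passed the test. The highest, in sorted Six2 cells at E14.5, had an adjusted p of 0.0686 (edgeR), with 357, 268 and 347 CPM in WT and 370, 416 and 472 CPM in T1, which do not overlap.

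The ratio of H19 to Igf2 within a library needs no scaling between libraries, but its level depends on the Igf2 count, which may be partial. In sorted Six2 cells at E18.5, WT libraries held 25.0, 25.5 and 26.4 H19 counts per Igf2 count and T1 libraries 13.9, 13.2 and 13.2. The log2 ratio was 4.68 ± 0.04 (SD, n = 3) in WT and 3.75 ± 0.04 (SD, n = 3) in T1. The difference was -0.93, at an exact permutation p of 0.1 (2-sided), the smallest that 3 against 3 can give. In whole Six2 kidneys the log2 ratio was lower in mutants by 0.72 (T1) and 0.86 (T3), each 2 against 2 without overlap, where an exact permutation test cannot go below 0.333. For sorted Foxd1 cells it was 1.34 ± 0.13 (SD, n = 4) in WT and 0.77 ± 0.12 (SD, n = 4) in T1, with an exact permutation p of 0.0286, or 0.171 after adjustment over the 6 ratios, which misses the threshold. At E14.5 and in whole Foxd1 kidneys the groups overlapped, with differences of 0.03 (exact p = 0.8) and -0.21 (exact p = 0.3).

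**Figure D2:**
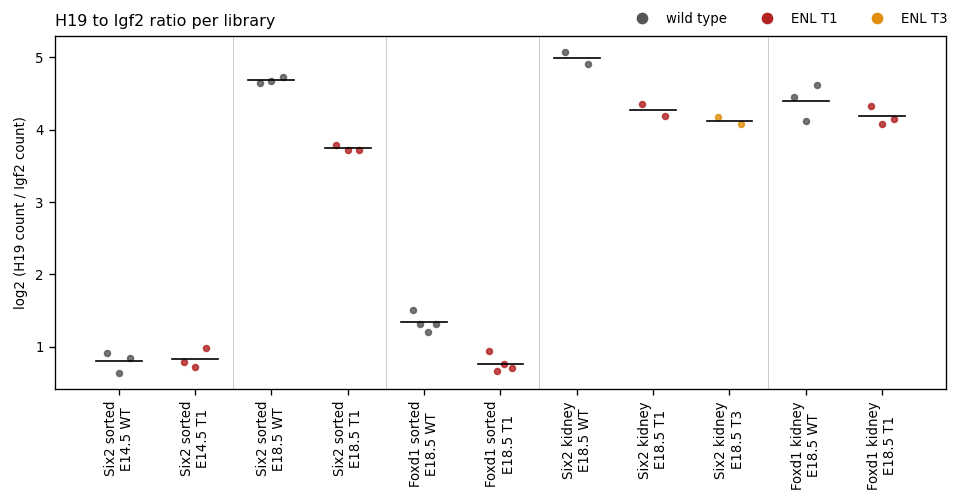
Log2 of H19 counts over Igf2 counts in each library (vertical axis), by group; points are libraries and bars are group means. Mutant libraries lie below all WT libraries in sorted Six2 cells at E18.5, in whole Six2 kidneys and in sorted Foxd1 cells, while the groups overlap in sorted Six2 cells at E14.5 and in whole Foxd1 kidneys.

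Genes around Igf2 signalling and other imprinted genes were taken from lists. Of 11 further genes of the pathway, mostly receptors and binding proteins, 1 was called higher and 1 lower in sorted Six2 cells at E18.5 (18.2% against 11.7% of all genes, list median log2 fold change -0.23, all genes 0.02): Igf1, the related growth factor, by 1.67 (2.29 to 3.96 CPM in WT, 8.12 to 11.2 CPM in T1, adjusted p = 3.1e-05, edgeR), and Igfbp7, a secreted binding protein, by -1.38 (246 to 268 CPM in WT, 90.0 to 105 CPM in T1). Sorted Foxd1 cells had 1 of 11 called (9.09% against 5.81% of all genes), Igfbp2, at 75.9 to 97.3 CPM in WT and 256 to 458 CPM in T1 (log2 fold change 2.01). Of 25 imprinted genes outside the Igf2 and H19 pair, 5 were called higher and 5 lower in sorted Six2 cells at E18.5, that is 40% against 11.7% of all genes. The non-coding RNAs Rian, Mirg and Meg3, of 1 imprinted domain, were called higher (log2 fold changes 1.69, 1.56 and 1.46), and Magel2, Grb10 and the cell cycle inhibitor Cdkn1c lower. Cdkn1c held 530 to 686 CPM in WT and 177 to 191 CPM in T1 (log2 fold change -1.75). In the same libraries 7 podocyte markers summed to 3126 to 3653 CPM in WT and 233 to 294 CPM in T1. The part of cell composition in the calls of imprinted genes was not tested. Among sorted Foxd1 cells 0 of 24 were called higher and 5 lower, where 5.81% of all genes were called, among them Zim1, Peg10 and Plagl1 (log2 fold changes -1.67, -0.93 and -0.87).

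Wt1 held 187, 184 and 181 CPM in WT and 130, 136 and 139 CPM in T1 sorted Six2 cells at E14.5. At E18.5 it held 568, 537 and 585 CPM in WT and 407, 416 and 428 CPM in T1. At each stage all T1 libraries were below all WT libraries. The log2 fold changes were close, -0.43 at E14.5 (SE 0.04, adjusted p = 0.000459, edgeR) and -0.43 at E18.5 (SE 0.06, adjusted p = 0.00022, edgeR), a fold of 0.74 at both, which passed the adjusted p and not the fold threshold. Their difference was 0.01 (SE 0.07, adjusted p = 0.947, edgeR interaction term). Summed levels of 8 nephron progenitor markers were also lower in these T1 cells without overlap, at 1891 to 2242 CPM in WT and 997 to 1196 CPM in T1 at E14.5 and at 669 to 857 CPM in WT and 323 to 389 CPM in T1 at E18.5, and their part was not tested.

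The other samples gave Wt1 differences of both signs. In whole Six2 kidneys the values were 123 and 149 CPM in WT, 130 and 126 CPM in T1, and 118 and 121 CPM in T3, and neither comparison passed (adjusted p = 0.613 and 0.205, edgeR), although the T3 libraries lay below both WT libraries. In whole Foxd1 kidneys WT libraries held 181, 175 and 184 CPM and T1 libraries 226, 202 and 204 CPM. Here the T1 libraries were all higher, by 0.23 on the log2 scale (SE 0.06, adjusted p = 0.00658, edgeR), beside summed levels of the same progenitor markers of 437 to 469 CPM in WT and 584 to 698 CPM in T1. Podocyte markers (7 genes) went the other way, at 1201 to 1241 CPM in WT and 891 to 1162 CPM in T1. The part of either sum was not tested. Sorted Foxd1 cells had Wt1 levels that lay between 39.5 and 65.6 CPM with overlapping groups. Their T1 effect minus that of Six2 cells at E18.5 was 0.26 (SE 0.15, adjusted p = 0.293, edgeR interaction term), which missed the threshold but passed without Foxd1 WT replicate 1 (0.39, adjusted p = 0.036, edgeR).

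Podocyte genes that WT1 activates were among those that fell. Of 18 targets and partners of WT1, 7 were called lower and 3 higher in sorted Six2 cells at E18.5 (55.6% of 18 against 11.7% of all genes). The lower genes included the slit diaphragm gene Nphs1 (192 to 219 CPM in WT, 8.47 to 9.80 CPM in T1, log2 fold change -4.51) and Podxl, a coat protein of podocytes (-4.57). The higher ones were Wnt4, the signal that starts nephron formation (234 to 250 CPM in WT, 398 to 445 CPM in T1, log2 fold change 0.82), Pax2 (0.60) and Areg (0.76). In whole Six2 kidneys Nphs1 had log2 fold changes of -2.68 in T1 and -2.73 in T3, and in whole Foxd1 kidneys 0 of 17 genes of the list were called, against 10.2% of all genes. Summed levels of 7 podocyte markers, 5 of which are in that list of targets, were 3126 to 3653 CPM in WT and 233 to 294 CPM in T1 sorted Six2 cells at E18.5. The part of this change in the lower Wt1 was not tested.

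Mycn moved in opposite directions in sorted cells of the 2 lineages at E18.5. In sorted Foxd1 cells WT libraries held 35.0, 40.0, 33.9 and 48.8 CPM and T1 libraries 18.8, 26.3, 26.3 and 24.9 CPM. All T1 libraries were lower, with a log2 fold change of -0.71 (SE 0.14, adjusted p = 0.00231, edgeR), on 51 to 137 counts per library. In sorted Six2 cells at E18.5 WT libraries held 60.6, 47.7 and 48.8 CPM and T1 libraries 69.5, 70.1 and 65.2 CPM. All T1 libraries were higher, by 0.39 (SE 0.09, adjusted p = 0.00752, edgeR), a fold of 1.31. In the same libraries 7 proliferation markers summed to 1165 to 1219 CPM in WT and 1298 to 1369 CPM in T1. Early nephron markers were higher too (1248 to 1356 CPM in WT, 1886 to 2058 CPM in T1), and the progenitor markers given beside Wt1 were lower. Their part was not tested. The difference between the lineages was -1.11 (SE 0.17, adjusted p = 8.21e-05, edgeR interaction term).

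At E14.5 Mycn was high and its T1 effect was not detected. WT libraries held 173, 199 and 221 CPM and T1 libraries 180, 167 and 172 CPM, which overlap (log2 fold change -0.18, SE 0.08, adjusted p = 0.204, edgeR). The stage difference of the T1 effect was 0.58 (SE 0.13, adjusted p = 0.0165, edgeR interaction term), lost on leaving out any of 5 single libraries, all at E18.5. Mycn in whole Foxd1 kidneys held 64.0, 60.7 and 57.0 CPM in WT and 88.1, 70.6 and 79.3 CPM in T1, higher by 0.39 (SE 0.07, adjusted p = 0.00145, edgeR), where sorted Foxd1 cells of the same genotype were lower; the progenitor markers given beside Wt1 were higher in the same whole kidneys, and their part was not tested. In whole Six2 kidneys the 6 libraries lay between 30.6 and 38.9 CPM with all 3 groups overlapping. Of 17 partners, antagonists and targets of MYC proteins, 0 were called in sorted Six2 cells at E18.5, in sorted Foxd1 cells (16 tested) and in either kind of whole kidney by edgeR's quasi-likelihood test. Of all genes, 5.81% to 11.7% were called in these comparisons, so 0 calls among so few genes is no result about the list. In whole Foxd1 kidneys 9 of the 17 were higher and 1 lower at an adjusted p under 0.05 alone (edgeR), where 16.4% of all genes were higher by that rule.

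**Figure D3:**
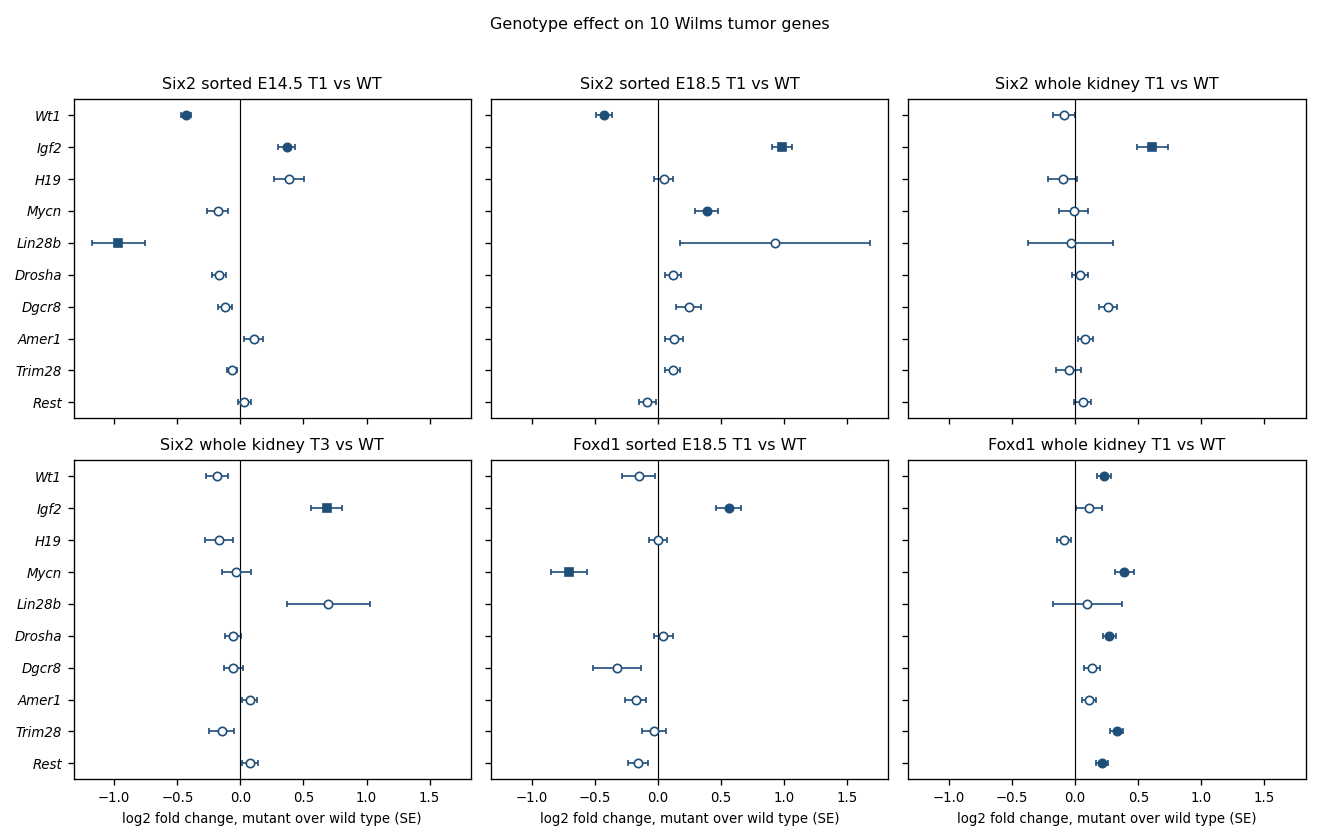
Log2 fold change of each gene, mutant over WT (horizontal axes), with its SE, in 6 comparisons. Filled points passed an adjusted p under 0.05, squares also passed a fold of 1.5; Igf2 lies right of 0 in all 6 panels, while Mycn is at -0.71 in sorted Foxd1 cells and at 0.39 in sorted Six2 cells at E18.5. Lin28b was not tested in sorted Foxd1 cells.

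Lin28b, the RNA-binding protein that holds let-7 back, was rare. In sorted Six2 cells at E14.5 WT libraries held 7.67, 4.75 and 4.66 CPM (610 to 984 counts) and T1 libraries 2.54, 3.22 and 2.88 CPM (360 to 401 counts). All T1 libraries were lower, with a log2 fold change of -0.97 (SE 0.21, adjusted p = 0.0197, edgeR), beside the lower progenitor markers given for Wt1 at this stage, whose part was not tested. The call was lost when all 4 groups of sorted Six2 cells entered the fit (adjusted p = 0.199, edgeR) and without T1 replicate 1 or T1 replicate 3 (adjusted p = 0.0743 and 0.0678, edgeR).

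At E18.5 Lin28b was low in the same lineage. WT libraries held 25, 11 and 3 counts (0.316, 0.140 and 0.0426 CPM) and T1 libraries 59, 16 and 8 counts (0.642, 0.200 and 0.107 CPM), which overlap. The T1 effect, 0.93, had an SE of 0.75 (adjusted p = 0.467, edgeR), so a difference was not detectable with this spread between libraries. In sorted Foxd1 cells 2 counts in 1 WT library and 4 counts in 1 T1 library were all that was seen, and 0 counts in the other 6 libraries allow up to 0.877 to 1.21 CPM in each. Whole kidneys held 0.560 to 1.53 CPM, highest in T3 (1.08 and 1.53 CPM against 1.06 and 0.560 CPM in WT, log2 fold change 0.70, SE 0.33, adjusted p = 0.205, edgeR). The WT and T3 libraries did not overlap but differed by less than the test could separate.

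Around Lin28b, 12 genes of the let-7 axis were listed, and 11 could be tested in sorted Six2 cells. At E14.5, 1 was called (9.09% against 6.4% of all genes): Trim71, another let-7 target, held 8.10 to 12.5 CPM in WT and 3.10 to 3.56 CPM in T1 (log2 fold change -1.56, adjusted p = 0.00079, edgeR). At E18.5, with 2 of 11 called (18.2% against 11.7%), Trim71 was lower (-0.71) and Igf2bp1, which binds Igf2 messenger RNA, higher, from 138 to 176 CPM in WT to 279 to 280 CPM in T1 (log2 fold change 0.86, adjusted p = 5.4e-06, edgeR). Hmga2, given here for its let-7 seed matches and not by the rule for named genes, had a log2 fold change of -0.36 at E14.5 (adjusted p = 0.0305, edgeR), of 0.04 at E18.5 (adjusted p = 0.785, edgeR) and of 0.52 in sorted Foxd1 cells (adjusted p = 0.00275, edgeR), each under the fold threshold. Values of these genes thus had both signs.

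Drosha, the RNA-cutting enzyme of the pair, held 190, 176 and 174 CPM in WT and 164, 160 and 150 CPM in T1 sorted Six2 cells at E14.5, a log2 fold change of -0.17 (SE 0.05, adjusted p = 0.0771, edgeR) although the groups did not overlap. At E18.5 it was 0.12 (SE 0.07, adjusted p = 0.238, edgeR), with overlapping groups. The difference between stages was 0.30 (SE 0.09, adjusted p = 0.0455, edgeR interaction term), a value just under 0.05 that was lost with RLE size factors, without the filter on low counts, with a replicate block (adjusted p = 0.0824) and without any of 9 single libraries. Drosha in whole Foxd1 kidneys held 102, 108 and 113 CPM in WT and 129, 130 and 130 CPM in T1, higher by 0.27 (SE 0.05, adjusted p = 0.00149, edgeR).

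Dgcr8, the RNA-binding partner of Drosha, passed in none of the 6 comparisons against WT. It came nearest in whole Six2-ENL T1 kidneys, with 48.6 and 47.3 CPM in WT and 60.2 and 54.6 CPM in T1 (log2 fold change 0.26, SE 0.07, adjusted p = 0.0538, edgeR), whereas T3 kidneys held 48.2 and 44.1 CPM. The T1 effect in sorted Foxd1 cells minus that in Six2 cells was -0.59 (SE 0.21, adjusted p = 0.0677, edgeR interaction term), which missed the threshold but passed with DESeq2 (adjusted p = 0.0438), with library size only (0.0309, edgeR) and without Six2 T1 replicate 1 or Foxd1 T1 replicate 1 or 3. The stage term was 0.38 (SE 0.12, adjusted p = 0.0717, edgeR) and passed with library size only and without E18.5 T1 replicate 1. Of its exon bases 17.14% lie under other genes, mostly the antisense Trmt2a. Among 15 further genes of microRNA maturation and silencing, Dicer1 and the Argonaute genes included, 0 were called in any of the 6 genotype comparisons against WT by edgeR's quasi-likelihood test. Of all genes, 5.81% to 11.7% were called in these comparisons, so 0 calls among 15 genes is no result about the list. Between 0 and 3 per comparison had an adjusted p under 0.05 alone, a rule that 33.4% of all genes passed in whole Foxd1 kidneys.

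Amer1, an X-linked brake on WNT signalling, had log2 fold changes between -0.17 and 0.13 in the 6 comparisons against WT and passed in none. The nearest to the threshold was whole Foxd1 kidneys (43.0, 40.8 and 40.9 CPM in WT, 44.0, 45.0 and 45.4 CPM in T1, adjusted p = 0.135, edgeR). In sorted Foxd1 cells WT libraries held 85.0, 86.2, 92.7 and 84.6 CPM and T1 libraries 85.6, 69.5, 78.8 and 74.9 CPM. The Foxd1 effect minus the Six2 effect was -0.32 (SE 0.11, adjusted p = 0.0475, edgeR interaction term), which was lost without the low-count filter, with a replicate block (adjusted p = 0.0765) and without any of 9 single libraries. In whole Six2 kidneys Xist, the RNA of the inactive X chromosome, was 0.108 and 549 CPM in WT, 0.159 and 0.11 CPM in T1, and 960 and 1327 CPM in T3, so T1 and T3 differed in this sex marker as well as in allele. In whole Foxd1 kidneys Xist was 819 to 977 CPM in WT and 439.8 to 541 CPM in T1. The part of sex in these values was not tested. Of 18 WNT pathway genes, 2 were called higher and 2 lower in sorted Six2 cells at E14.5 (23.5% of 17 tested against 6.4% of all genes): the WNT targets Nkd1 and Notum (log2 fold changes 0.62 and 0.61), and Tcf7l1 and the WNT inhibitor Dkk1 (-0.78 and -0.76). At E18.5 Notum alone of 17 was called (0.64, 5.88% against 11.7% of all genes), and in sorted Foxd1 cells Dkk1 alone of 15 (6.67% against 5.81%, log2 fold change -1.18, 43.9 to 96.4 CPM in WT and 22.5 to 36.6 CPM in T1).

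Trim28, a corepressor that recruits silencing enzymes and guards imprints, passed in whole Foxd1 kidneys only among the 6 comparisons, though differences between comparisons were tested for sorted cells alone. WT libraries held 487, 523 and 482 CPM and T1 libraries 623, 622 and 631 CPM. All T1 libraries were higher, with a log2 fold change of 0.33 (SE 0.05, adjusted p = 0.000368, edgeR), a fold of 1.26. Elsewhere its log2 fold change lay between -0.15 and 0.12. Of 14 partners, 0 were called by genotype in any of the 6 comparisons by edgeR's quasi-likelihood test, where 5.81% to 11.7% of all genes were called. In whole Foxd1 kidneys 5 of the partners were higher and 1 lower by adjusted p alone, where 16.4% of all genes were higher and 17% lower.

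Rest, which keeps neuronal genes silent outside the nervous system, had small differences. In whole Foxd1 kidneys WT libraries held 103, 98.2 and 103 CPM and T1 libraries 120, 119 and 113 CPM, higher by 0.21 (SE 0.05, adjusted p = 0.00573, edgeR). The other 5 log2 fold changes lay between -0.16 and 0.08. Of the neuronal genes that Rest silences, 19 were tested in whole Six2 kidneys, and 3 were called higher in T1 and 4 in T3 with 0 lower (15.8% and 21.1% against 7.77% and 9.62% of all genes). Of 20 tested in sorted Six2 cells at E18.5, 3 were called higher and 2 lower (25% against 11.7%). Summed levels of 8 markers of neural cells, of which Elavl4 is in both lists, were 11.5 to 11.6 CPM in WT and 15.3 to 17.9 CPM in T1 and T3 whole Six2 kidneys, and 24.5 to 32.7 CPM in WT and 52.9 to 56.5 CPM in T1 sorted Six2 cells at E18.5. Their part was not tested. Syt4, a vesicle protein, was called higher in 5 comparisons, among them whole Six2 kidneys (1.39 to 1.85 CPM in WT, 7.67 to 8.37 CPM in T1, log2 fold change 2.30, adjusted p = 0.00012, edgeR). Bdnf was called lower in sorted Six2 cells at E18.5 (-1.67) and higher in sorted Foxd1 cells (2.15). Of 12 corepressors that Rest recruits, 1 was called in any of the 6 comparisons, Rcor2, at -0.65 in sorted Six2 cells at E14.5. Of all genes, 6.4% were called there and 5.81% to 11.7% over the 6 comparisons.

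Of the 10 genes, 5 thus had a slightly higher level in whole Foxd1-ENL T1 kidneys: Wt1, Mycn, Drosha, Trim28 and Rest, with log2 fold changes of 0.21 to 0.39. In the same kidneys 7 proliferation markers summed to 976 to 1024 CPM in WT and 1258 to 1397 CPM in T1, and 7 proximal tubule markers to 2624 to 2753 CPM in WT and 1177 to 1519 CPM in T1, without overlap, and their part was not tested. Of all genes tested there, 16.4% were higher at an adjusted p under 0.05 and 17% lower, and the median of the 10 was 0.17 against -0.00 for all genes. Of 27 other genes mutated in Wilms tumor, 18 were higher and 1 lower by the same rule, with a median of 0.23. Among those past the fold threshold was Six2, the factor of self-renewing progenitors (118 to 136 CPM in WT, 194 to 241 CPM in T1, log2 fold change 0.75). In whole Six2-ENL kidneys Six2 was instead lower, with log2 fold changes of -1.20 in T1 and -1.32 in T3, and 1 of the 27 genes was called in each (3.7% against 7.77% and 9.62% of all genes).

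Between E14.5 and E18.5 in sorted Six2 cells a gene was called changed at an adjusted p under 0.01 and a fold over 2. In WT 4 of the 10 were called, against 45.5% of all genes, and in T1 the same 4, against 44.2%. H19 rose by 3.24 on the log2 scale in WT (SE 0.12, from 268 to 357 CPM to 2838 to 3402 CPM, adjusted p = 8.88e-12, edgeR) and by 2.90 in T1, and Wt1 rose by 1.61 in WT and 1.63 in T1. Mycn decreased by 1.92 in WT and by 1.34 in T1, and Lin28b decreased by 5.06 in WT (SE 0.58) and by 3.15 in T1 (SE 0.53). The Lin28b stage change did not differ between genotypes past the threshold (1.92, SE 0.77, adjusted p = 0.157, edgeR interaction term). In the WT cells Drosha (-0.41), Dgcr8 (-0.64), Igf2 (-0.64) and Amer1 (0.50) passed the adjusted p alone, which makes 8 of 10 by that rule against 64% of all genes.

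Of the 15 other genes of microRNA maturation, 10 were called higher and 3 lower with stage in WT (86.7% against 45.5% of all genes), the Argonaute genes Ago1 and Ago2 among the higher (2.93 and 2.48) and Tarbp2, a partner of Dicer1, among the lower (-1.23), while Drosha and Dgcr8 were not called. Stage coincided with other differences between the libraries. By the methods of the study, E14.5 kidneys were dissociated with trypsin and E18.5 kidneys with collagenase II, for a longer time. Summed levels of 8 genes of dissociation stress in WT were 1495 to 2713 CPM at E14.5 and 3403 to 4199 CPM at E18.5. In libraries with Xist, a very long RNA, it held 26.3 to 36.0 CPM at E14.5 and 504 to 642 CPM at E18.5, and the median stage change in WT was 0.33 for genes with over 5000 bases of exon against -0.20 for genes of 2000 to 5000 bases. Stage cannot be told apart from the way of dissociation or from any other difference in how the libraries were made.

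**Figure D4:**
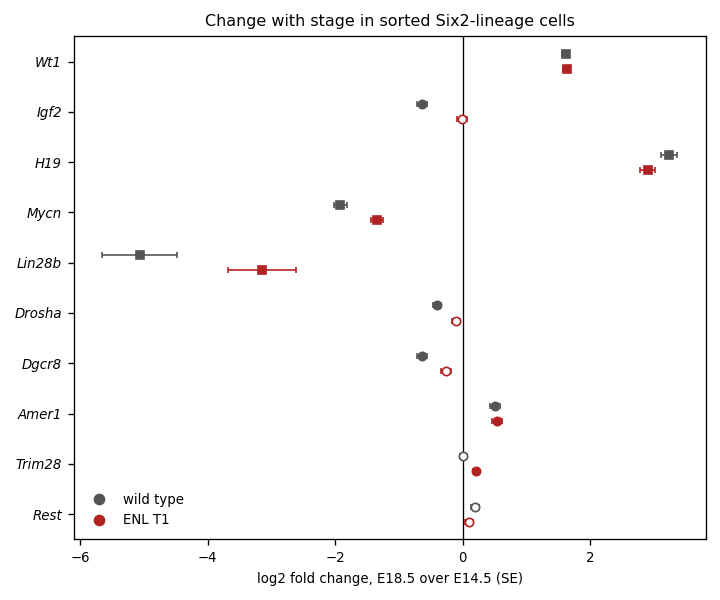
Log2 fold change of each gene from E14.5 to E18.5 (horizontal axis) with its SE in sorted Six2 cells, WT in grey and T1 in red. Filled points passed an adjusted p under 0.01 and squares also a fold of 2; Igf2 is at -0.64 in WT and at -0.01 in T1, and Lin28b is the lowest point in both genotypes.

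Ordered by group mean, the 11 groups stood differently for each gene. Igf2 was highest in sorted Foxd1 T1 cells (456 CPM), then in sorted Foxd1 WT cells (310 CPM), apart from each other and from the T1 Six2 cells of both stages (235 and 234 CPM), which overlap. Wt1 was highest in the 2 E18.5 groups of sorted Six2 cells (563 and 417 CPM) and lowest in the 2 of sorted Foxd1 cells (50.8 and 46.1 CPM), which overlap. Trim28 varied from 216 CPM in sorted Foxd1 T1 cells to 625 CPM in whole Foxd1 T1 kidneys. Drosha varied least, from 101 to 180 CPM, with 8 of the 10 neighbouring pairs of groups overlapping.

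Over the 12 libraries of sorted Six2 cells, the gene whose log2 CPM followed Igf2 most closely was the homeobox gene Hoxd11 (Pearson r = 0.984), then Defb25 (0.975) and Hoxa11os (0.969). Wt1 was followed most closely by the matrix gene Vcan (0.998), H19 by Mon2 (0.999), Mycn by BC055324 (0.997) and Lin28b by Wdr55 (0.988). The 12 libraries share 2 stages, which differ in 45.5% of all genes in WT by the rule above, so such values are descriptions of those libraries.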

How the data were processed

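The values are raw counts per gene. Per the labels and the methods of the study, the authors aligned reads to mm10 with HISAT2, used HTSeq, with strand ignored, to count them per Ensembl gene and deposited these counts as 4 tables; how reads that fit more than 1 gene were counted is not given in the sources used here. The methods name the KAPA Stranded mRNA kit for whole kidneys and the SMART-seq v4 kit for sorted cells.

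Groups came from sample titles, and all columns were mapped. Of 55806 identifiers, 55536 matched a GENCODE vM21 name. Low genes were removed with filterByExpr (minimum count 10, minimum total 15), counts were TMM-scaled, and edgeR 4.0.16 in R 4.3.3 (limma 3.58.1) ran the quasi-likelihood test with adjustment over all genes, on the groups compared, or for whole Six2 kidneys, stage and lineage terms on all groups concerned. Genotype calls needed an adjusted p under 0.05 and a fold over 1.5, stage calls 0.01 and 2, and interaction terms 0.05 alone. Standard errors were derived from the F statistic. The H19 to Igf2 ratio was tested by exact permutation (Python 3.11.15, numpy 2.4.6). DESeq2 1.42.0, other scalings, filters, thresholds and left-out libraries were alternatives. The scripts were tested on simulated counts. Between libraries of a group the lowest chi-square per degree of freedom was 1.36 over 33 pairs, so none was a copy.

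From each pathway list, up to 3 called genes per direction and comparison with the largest change were named, and some genes that this rule names are not reported here. The 10 genes and the lists were chosen with earlier results of these data known. The let-7 match search, the split by exon length and the Xist values were added after values had been seen. A floor of 3 counts and all intervals cover counting error only.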

Additional observations from a re-analysis of the deposited data

Results flagged for a closer look

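In sorted Foxd1 WT cells, 1 library stood apart for each of 3 genes, measured by its gap to the nearest library as a share of the group's range. Wt1 was 65.6 CPM in replicate 1 against 44.8 to 47.3 CPM in the others (share 0.879). H19 was 902 CPM in replicate 3 against 729 to 741 CPM (share 0.934), and the same library had the highest Igf2 of its group, 392 CPM. Lin28b had counts in 1 of 4 libraries of WT and in 1 of 4 of T1 (share 1 in both), on 2 and 4 counts. Of 20 such groups of 4 libraries, 4 were past the limit. Those of Lin28b reach a share of 1 by construction, since all but 1 library held no counts. The number past the limit is therefore not set against chance.

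The T1 effect differed between stages in sorted Six2 cells, by the edgeR interaction term, for Igf2 (0.63 on the log2 scale, E18.5 minus E14.5), Mycn (0.58) and Drosha (0.30). It differed between lineages at E18.5, Foxd1 minus Six2, for Igf2 (-0.44), Mycn (-1.11) and Amer1 (-0.32). The Mycn effect had opposite signs in the lineages, with T1 libraries all higher in Six2 cells and all lower in Foxd1 cells.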

How the results depend on the processing

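The number of the 10 genes called fell to 0 with a fold over 2 in each of the 5 genotype comparisons that had 1 call, and to 0 for the stage interaction and 1 for the lineage interaction. With no fold threshold it was 3 in sorted Six2 cells at either stage, 2 in sorted Foxd1 cells, 5 in whole Foxd1 kidneys and 8 for stage in WT. By that rule 33.4% of all genes passed in whole Foxd1 kidneys and 64% for stage in WT. At E14.5 it passed 1429 genes as higher and 1455 as lower of 22387 tested. Without the low-count filter T3 kidneys had 2 calls, Lin28b being added, and with all 4 groups fitted sorted Six2 cells at E14.5 had 0. On leaving out single libraries the calls ranged from 0 to 1 for T1 and for T3 in whole Six2 kidneys and for sorted Six2 cells at E14.5, from 1 to 2 in sorted Foxd1 cells (2 without WT replicate 3 or T1 replicate 1), from 1 to 3 for the stage interaction and from 1 to 4 for the lineage interaction. The stage interaction had 1 call without E18.5 T1 replicate 2 or 3 or WT replicate 2. The lineage interaction had 1 call without Six2 T1 replicate 2 or 3, Six2 WT replicate 2, Foxd1 WT replicate 3 or Foxd1 T1 replicate 2. The H19 to Igf2 difference at E14.5 ranged from -0.054 to 0.0894, being negative without T1 replicate 3 or WT replicate 2.

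Same-numbered libraries correlated between -0.0791 and 0.0997 in their deviations over 19 pairs, which showed no pairing by number but cannot exclude it. In whole Six2 kidneys each of these values stood under both replicate numbers, so those pairs are not separate. With a replicate block the calls were 1 in each of the 5 genotype comparisons with 1 call, 0 in whole Foxd1 kidneys and between T3 and T1, and 4 for stage in either genotype, as without it, and 2 for each interaction against 3.

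Of 73 values that passed no adjusted p, 31 changed sign under some alternative. With library size only, signs changed for Mycn (0.064), Lin28b (0.0371) and Trim28 (0.023) in T1 whole Six2 kidneys, Mycn (0.0412), Drosha (0.015) and Dgcr8 (0.0171) in T3 whole Six2 kidneys, Rest (0.0132) in sorted Six2 cells at E18.5, Trim28 (-0.126) between stages in WT, Rest (-0.0012) between stages in T1. With RLE size factors they changed for Mycn (0.008) in T1 whole Six2 kidneys, Igf2 (0.089) between stages in T1, Wt1 (-0.0214) and Amer1 (-0.0029) in the stage interaction. DESeq2 changed the sign for Mycn (0.0081) in T1 whole Six2 kidneys, Igf2 (0.089) between stages in T1, Wt1 (-0.0213) and Amer1 (-0.0029) in the stage interaction. With genes over 1 CPM the sign changed for Mycn (0.0116) in T1 whole Six2 kidneys, Amer1 (0.0033) between T3 and T1, H19 (-0.0054) in sorted Foxd1 cells, Igf2 (0.12) and Drosha (0.0248) between stages in T1. Without the low-count filter it changed for H19 (-0.0162) in sorted Foxd1 cells, Wt1 (-0.0372) and Amer1 (-0.0196) in the stage interaction. With the groups compared alone it changed for Mycn (0.0089) in T1 whole Six2 kidneys, Igf2 (0.0055) between stages in T1. The cause was not tested.

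On leaving out single libraries, the signs that changed did so within these ranges of log2 fold change. In T1 whole Six2 kidneys Wt1 ranged from -0.217 to 0.0832, H19 from -0.211 to 0.0466, Mycn from -0.168 to 0.197, Lin28b from -0.406 to 0.493, Drosha from -0.0341 to 0.14, Trim28 from -0.183 to 0.122 and Rest from -0.0151 to 0.166. In T3 whole Six2 kidneys Mycn ranged from -0.193 to 0.171, Drosha from -0.131 to 0.041, Dgcr8 from -0.112 to 0.0126 and Trim28 from -0.283 to 0.0204. Between T3 and T1 Igf2 ranged from -0.0236 to 0.157, H19 from -0.147 to 0.003, Mycn from -0.103 to 0.0497, Amer1 from -0.0514 to 0.0288 and Rest from -0.0168 to 0.046. In sorted Six2 cells at E14.5 Rest ranged from -0.0024 to 0.0768. In sorted Six2 cells at E18.5 H19 ranged from -0.0056 to 0.13 and Lin28b from -0.112 to 1.78. In sorted Foxd1 cells Wt1 ranged from -0.215 to 0.0052, H19 from -0.0257 to 0.0846 and Trim28 from -0.131 to 0.037. In whole Foxd1 kidneys Igf2 ranged from -0.0153 to 0.266 and Lin28b from -0.0123 to 0.186. Between stages in WT Trim28 ranged from -0.0187 to 0.0949. Between stages in T1 Igf2 ranged from -0.0789 to 0.0503. In the stage interaction Wt1 ranged from -0.0752 to 0.0359 and Amer1 from -0.058 to 0.0997.

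Over all genes, T3 against T1 gave 1 gene higher and 0 lower, but 58 and 17 with DESeq2, 69 and 19 with edgeR's exact test, 207 and 93 without the low-count filter, and 6 and 8 with those groups alone. Library size only moved the stage interaction from 995 higher and 1064 lower to 1268 and 882, and the lineage interaction from 1226 and 1135 to 935 and 1555. Without E18.5 WT replicate 2 the stage interaction had 453 and 874. T1 whole Six2 kidneys had 690 and 1169, but 456 and 707 without T1 replicate 1. Lin28b rests on 3 to 59 counts per library in sorted Six2 cells at E18.5, and whole Six2 kidneys rest on 2 libraries a group.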
